A study of Mus musculus with 12 samples.

Results

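The genes described here are 44 cell cycle and DNA replication genes, chosen by symbol from the 25189 genes of a count table of splenic regulatory T (Treg) cells. They were grouped by role: 7 cyclins, kinases and inhibitors of G1, 5 genes of the G1/S switch, 9 genes of origin licensing and firing, 5 genes of nucleotide supply and the replication clamp, 15 genes of G2 and mitosis, and 3 further genes whose products are abundant in dividing cells. All 44 were found in the table and all 44 passed the filter on low counts, which kept 13196 genes for testing.

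A T cell leaves rest when D-type cyclins with CDK4 or CDK6 begin to phosphorylate the retinoblastoma protein, which frees E2F transcription factors to switch on cyclin E, the licensing factors and the enzymes that make nucleotides. The MCM helicase is loaded on origins in G1 and fires in S phase, and a later wave of genes under the MuvB, B-MYB and FOXM1 complexes supplies cyclin A, cyclin B, CDK1 and the mitotic spindle machinery. Treg cells divide in the body more often than conventional CD4 T cells, and mTOR kinase complexes link growth signals to that division. Foxp3 is the X-linked transcription factor that maintains Treg identity, and Rictor is the subunit that defines mTOR complex 2.

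The 12 libraries came from 4-week-old female mice and fell into 3 groups of 4. Double-deficient cells lacked functional Foxp3 and Rictor, and the mice are given as Foxp3ΔEGFPiCre/+ RictorΔ/Δ R26YFP. Foxp3-deficient cells expressed the Foxp3ΔEGFPiCre allele, and these mice are given as Foxp3ΔEGFPiCre/RFP R26YFP. WT cells are labelled wild type, with the same sort definition for all groups, a double sort of CD4+RFP+ or CD4+YFP+ cells. The mutant Foxp3 allele itself drives the Cre recombinase, so the yellow reporter and the Rictor deletion follow Foxp3 promoter activity, and female carriers of 1 such allele hold cells that use either allele. Nothing in the labels ties a library to a mouse, so the tests can only weigh differences against library-to-library spread. Replicates keep the numbers of the labels: 2, 3, 4 and 5 in double-deficient cells, and 1, 3, 4 and 5 in the other two groups.

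Libraries held between 15769737 and 26114044 reads in genes. Foxp3 averaged 102 ± 13.7 in double-deficient, 118 ± 22.8 in Foxp3-deficient and 633 ± 75.8 in WT libraries (CPM, the reads of a gene scaled to a common library size by TMM; means here and below are ± SD with n = 4), and Rictor averaged 141 ± 12.6, 189 ± 31.2 and 148 ± 14.4 in the same order. The part of either gene that was deleted is not given, so gene-level counts do not check the Rictor label. The summed T cell markers lay between 7525 and 8223 CPM in double-deficient, 6990.0 and 8547 CPM in Foxp3-deficient and 7193 and 7385 CPM in WT libraries. In a principal component analysis of all tested genes, 2 Foxp3-deficient libraries stood apart from the rest of their group. Component 2 placed replicate 1 at 59.4 and component 3 placed replicate 3 at 55.2. Reads without a unique alignment made up 31.1% to 33.1% of double-deficient, 23.0% to 29.5% of Foxp3-deficient and 25.9% to 28.5% of WT libraries. Reads assigned to no counted feature made up 4.63% to 5.47%, 6.22% to 9.27% and 7.52% to 8.75%.

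The levels of the 44 genes, compared per kilobase of exon (RPKM, mean of the 12 libraries), spanned from 62.1 for Mcm6 to 0.44 for Ccnb1. Mcm6 and Ccnd2 (60.4 RPKM) were the highest, followed by Mcm4 (50.5), Tubb5 (49.5) and Cdk4 (48.8). The licensing genes had a median of 21.9 RPKM, and the G2 and mitosis genes a median of 1.83 RPKM. Some mitotic values rest on few reads: Bub1 had 6 to 130 reads per library and Ccnb1 13 to 65.

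Promoter sequences were read for motifs by role. RefSeq promoter windows (GRCm38.p6, 250 bases before to 50 after a start, read on the strand of the gene) were found for 37 of the 44 genes and not for Ccna2, Mcm4, Ccne2, Tpx2, Stmn1, Ccnd2 and Aurkb. The E2F motif was searched as TTTCCCGC, TTTCGCGC, TTTGCCGC or TTTGGCGC, and the cell cycle homology region (CHR, the element read by the MuvB complexes) as TTTGAA, both on either strand; E2F matches on opposite strands can overlap each other. Of 8 licensing genes, 6 held an E2F match (75.0%), as did 2 of 4 G1/S genes and 1 of 12 G2 and mitosis genes, against 2.61% of the 27025 genes in the table of promoters. A CHR match stood in 9 of 12 G2 and mitosis genes (75.0%), against 2 of 8 licensing genes and 20.2% of all genes. The CCAAT box was in 11 of 12 G2 and mitosis genes and 6 of 8 licensing genes, against 41.1% of all genes, and the variant TTTAAA in 4 of 12 G2 and mitosis genes, against 14.9%. These matches describe letters in a window and not sites in use. The 170 bases before the start are shown for 5 genes whose values are given below, with E2F and CHR matches in capitals: 2 licensing or G1/S genes that rose in Foxp3-deficient cells (Cdk2 and Mcm7), 1 licensing gene with 3 E2F matches whose level did not pass the test (Mcm6), the mitotic kinase gene with both motifs (Cdk1) and a spindle motor gene with CHR only (Kif11). The stretches lie at chr10:128705052-128705221 (Cdk2, minus strand), chr5:138171884-138172053 (Mcm7, minus strand), chr1:128359706-128359875 (Mcm6, minus strand), chr10:69352913-69353082 (Cdk1, minus strand) and chr19:37376212-37376381 (Kif11, plus strand).
Cdk2: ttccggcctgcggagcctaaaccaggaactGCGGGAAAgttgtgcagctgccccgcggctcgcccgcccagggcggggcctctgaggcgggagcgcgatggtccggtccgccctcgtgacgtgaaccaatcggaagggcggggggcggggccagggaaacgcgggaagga
Mcm7: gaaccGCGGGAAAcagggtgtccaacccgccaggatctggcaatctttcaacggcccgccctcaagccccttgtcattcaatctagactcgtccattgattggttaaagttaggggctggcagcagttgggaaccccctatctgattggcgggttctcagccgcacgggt
Mcm6: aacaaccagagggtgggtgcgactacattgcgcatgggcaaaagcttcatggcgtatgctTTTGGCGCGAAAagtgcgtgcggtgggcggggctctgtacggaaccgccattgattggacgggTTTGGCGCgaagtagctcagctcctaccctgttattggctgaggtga
Cdk1: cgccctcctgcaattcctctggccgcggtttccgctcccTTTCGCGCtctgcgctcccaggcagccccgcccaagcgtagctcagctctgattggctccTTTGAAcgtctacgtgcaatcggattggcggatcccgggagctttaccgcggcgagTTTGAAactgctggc
Kif11: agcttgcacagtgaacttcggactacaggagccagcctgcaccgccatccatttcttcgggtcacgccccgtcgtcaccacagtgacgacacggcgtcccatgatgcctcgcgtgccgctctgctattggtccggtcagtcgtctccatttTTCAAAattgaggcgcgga
In Mcm6 an overlapping pair of E2F matches on opposite strands is followed by a single match nearer to the start, and in Cdk1 an E2F match lies upstream of 2 CHR matches. Of the 9 genes with an E2F match, 5 were called higher in Foxp3-deficient cells, and of the 28 without one, 11 were. Of the 13 genes with a CHR match, 6 were called higher, and of the 24 without one, 10 were.

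**Figure D1:**
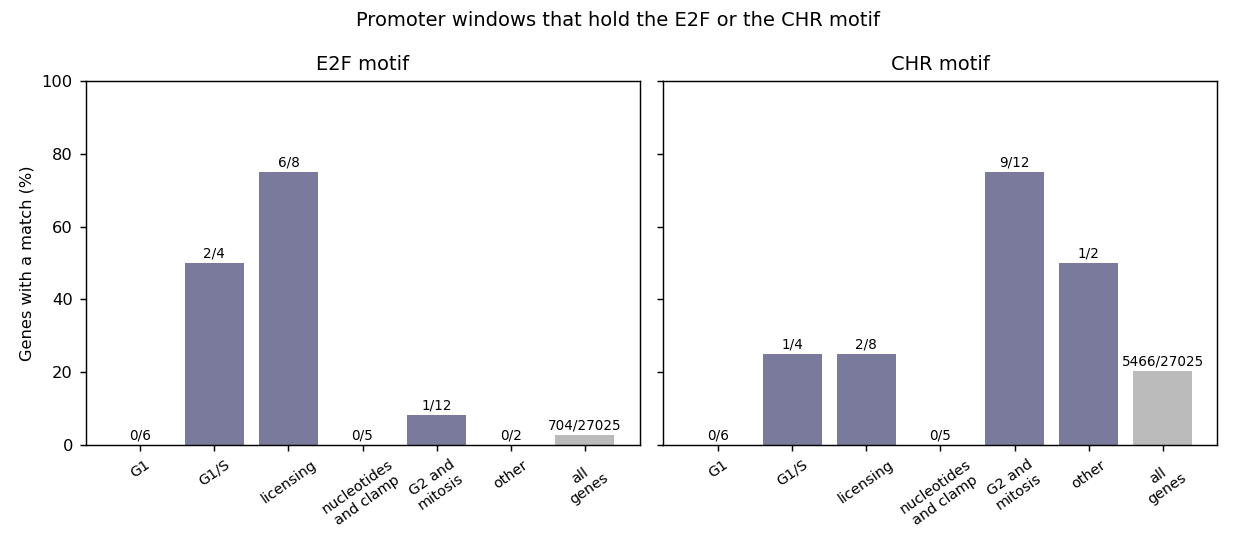
Share of genes whose RefSeq promoter window holds an E2F (left) or CHR (right) match, in percent, by role of the gene and for all genes of the promoter table; numbers above the bars are genes with a match over genes with a window. E2F matches stand mainly in the licensing genes (6 of 8) and CHR matches in the G2 and mitosis genes (9 of 12).

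In Foxp3-deficient cells these genes were mostly higher than in WT cells. Log2 fold changes are given ± SE, and a gene is said to rise or fall only where it passed the test. By edgeR's quasi-likelihood test (1 fit over 12 libraries, Benjamini-Hochberg adjusted p under 0.05 over 13196 genes), 18 of the 44 genes rose in Foxp3-deficient against WT cells and 0 fell, where 6.99% of all genes tested rose and 6.74% fell. The median log2 fold change of the 44 was 0.55, against 0.00 over all genes tested, and 39 of 44 had a positive value. At an unadjusted p under 0.05 by edgeR, 29 were higher and 1 lower, a count given without an all-gene share. Of the 13196 genes tested, DESeq2 called 1155 higher and 1076 lower, and limma-voom 853 higher and 1015 lower. Of the 44, DESeq2 called 26 higher and 1 lower, and limma-voom 14 higher and 0 lower. The count depended on single libraries: it was 27 without Foxp3-deficient replicate 3, but 7 without WT replicate 3, 8 without Foxp3-deficient replicate 5, 9 (8 higher and 1 lower) without WT replicate 5, 11 without WT replicate 1 and 12 without Foxp3-deficient replicate 1. Over all genes, the fit without Foxp3-deficient replicate 1 called 1874 of 13518 tested, against 1812 of 13196 with all libraries. Aurka, Ccna2, Ccnd3, E2f1, Rrm2 and Stmn1 were called in each of the 12 fits that left out 1 library.

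Loss of both Foxp3 and Rictor gave a similar count. In double-deficient against WT cells 18 of the 44 genes rose and 1 (Cdkn1b) fell, where 15.8% of all genes tested rose and 16.8% fell, with a median log2 fold change of 0.37 for the 44 and −0.03 for all genes. Both comparisons use the same WT libraries, so their values are given side by side and no overlap is counted as a result. The count was 11 (10 higher) without WT replicate 3, 12 (11 higher) without double-deficient replicate 3, and 24 (23 higher) without Foxp3-deficient replicate 3. Birc5, Ccna2, Cdk1, Cdkn1b, E2f1, E2f2, Hmgb2, Mcm7, Rrm2 and Stmn1 were called in each of the 12 fits that left out 1 library.

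Between the mutant groups few of these genes differed. In double-deficient against Foxp3-deficient cells 1 of the 44 genes rose (Hmgb2) and 2 fell (Cdk2 and Mcm4), where 13.9% of all genes tested rose and 13.3% fell. The median log2 fold change was −0.07, against −0.02 over all genes, and 17 of 44 values were positive. The 3 calls were made in each of the 12 fits that left out 1 library, and 5 more were added without Foxp3-deficient replicate 3 (Ccnd3, Plk1, Bub1b and Mki67 lower, with log2 fold changes of −0.33, −0.85, −0.82 and −0.70, and Pcna higher at 0.66). In bulk libraries more dividing cells and more RNA of these genes per cell cannot be told apart.

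**Figure D2:**
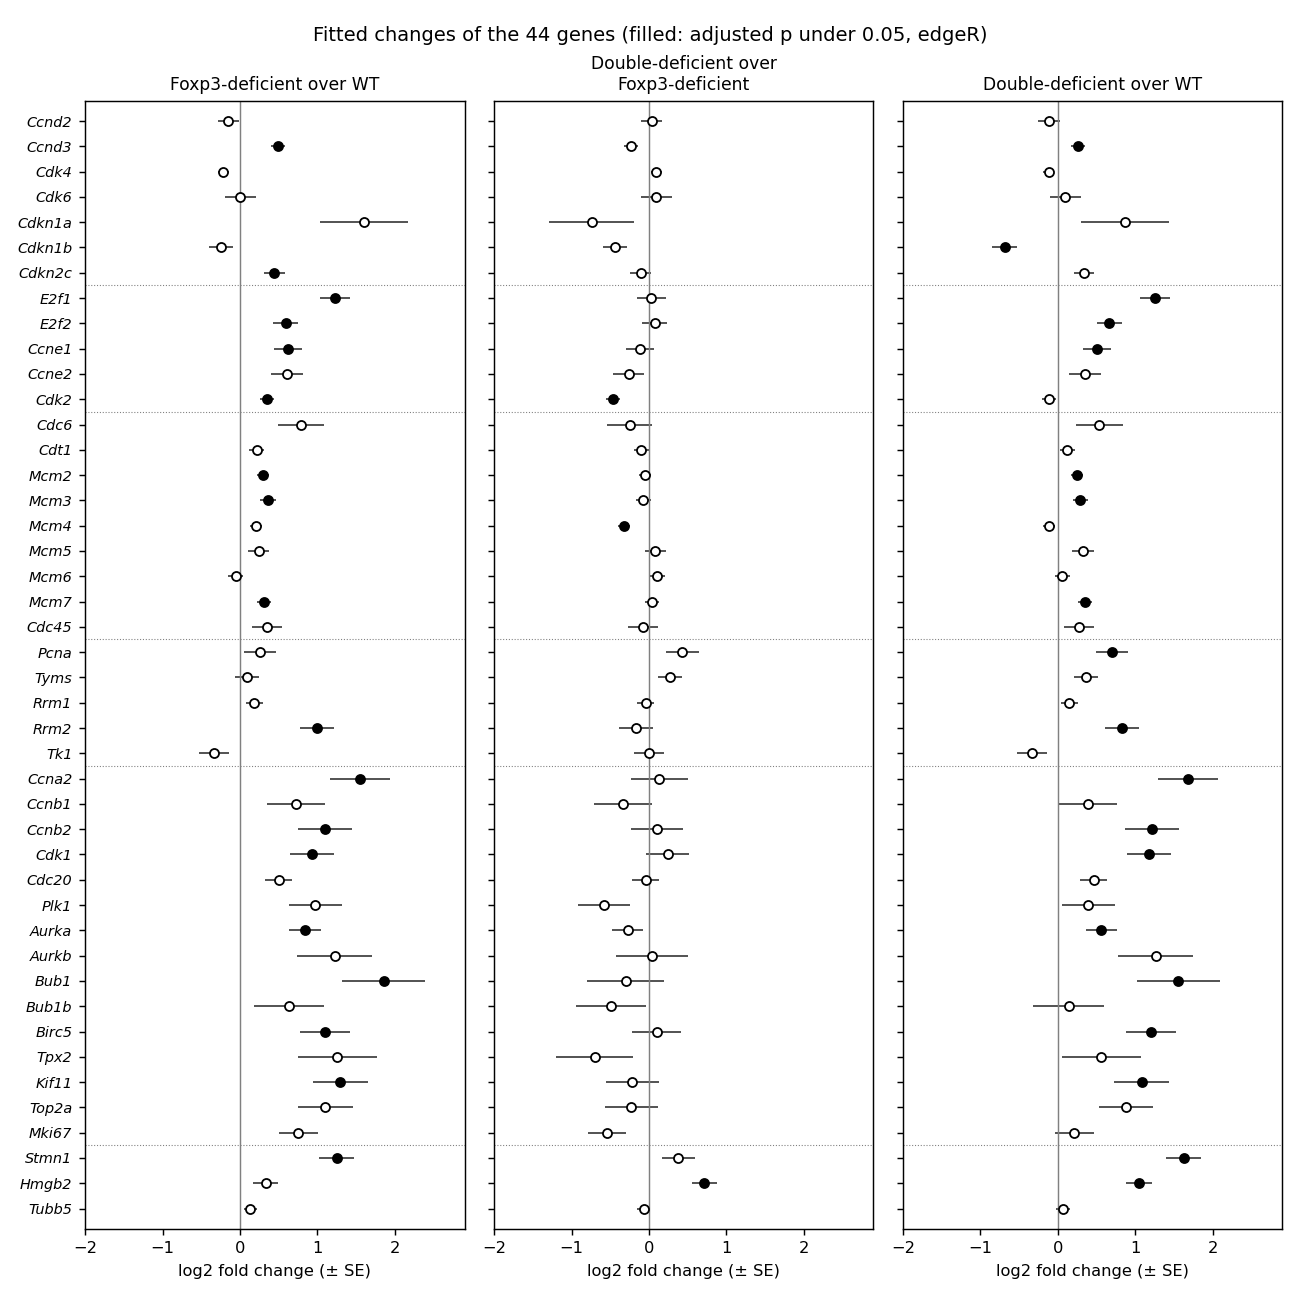
Fitted log2 fold change ± SE of each of the 44 genes in the 3 comparisons, ordered by role (dotted lines) from G1 at the top; filled points have an edgeR adjusted p under 0.05. Against WT all 15 G2 and mitosis genes lie to the right of 0 in both mutant groups, while in the middle panel only Cdk2, Mcm4 and Hmgb2 are filled.

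**Figure D3:**
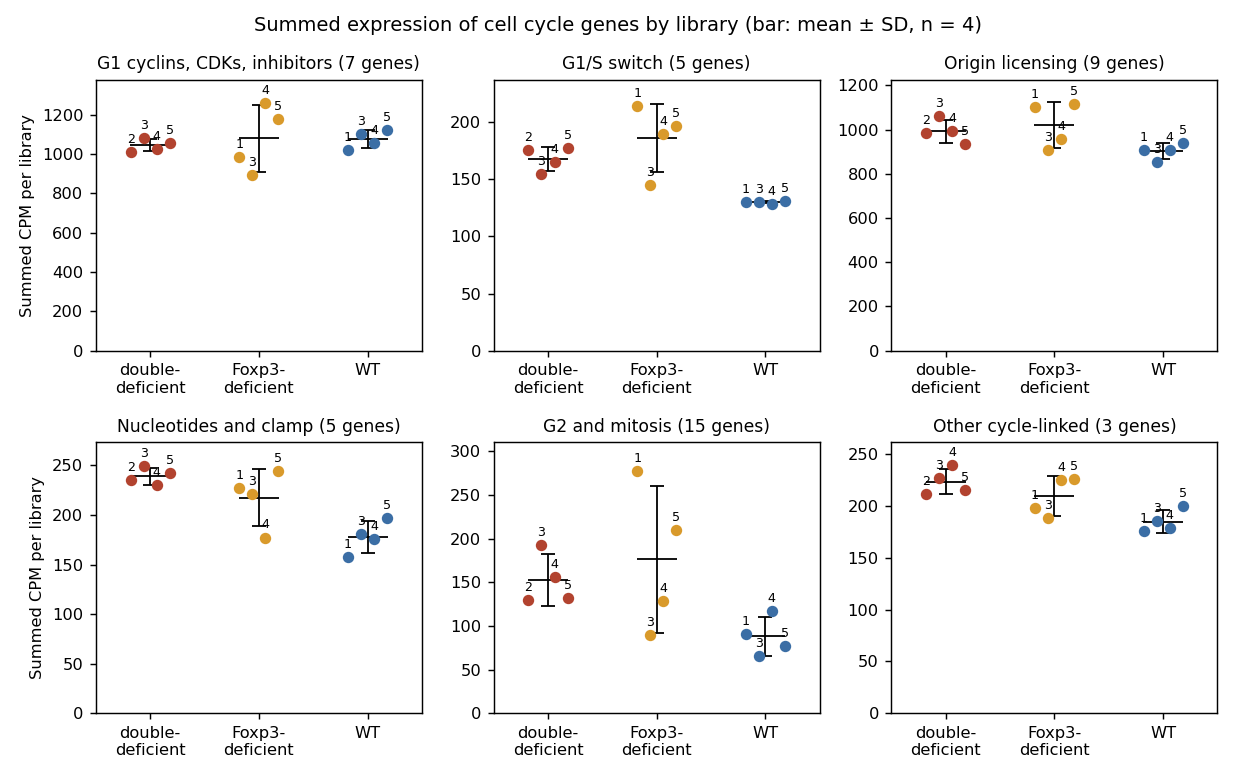
Summed CPM per library of the genes of each role, by group, with replicate numbers beside the points and bars for mean ± SD (n = 4). The G2 and mitosis sum is 129 to 193 CPM in double-deficient, 89.4 to 277 CPM in Foxp3-deficient and 65.9 to 118 CPM in WT libraries, and the G1/S sum of all 8 mutant libraries lies above the WT range of 128 to 131 CPM.

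In G1, the D-type cyclins and their kinases did not move as 1 group. Ccnd3 was at 239.6, 256, 253 and 246 CPM in double-deficient libraries and at 301, 237, 304 and 330.2 CPM in Foxp3-deficient libraries. WT libraries had 216, 219, 206 and 192 CPM of Ccnd3. Ccnd3 encodes cyclin D3, a D-type cyclin of lymphocytes, and all mutant libraries lay above all WT libraries. Its log2 fold change was 0.49 ± 0.09 (edgeR adjusted p = 0.00131) in Foxp3-deficient and 0.26 ± 0.09 (edgeR adjusted p = 0.0403) in double-deficient against WT cells. The double-deficient call was lost when any 1 of the 8 double-deficient or WT libraries was left out (log2 fold changes of 0.22 to 0.28). Ccnd2 stood at 528, 589, 539 and 575 CPM in double-deficient libraries and at 451, 406, 707 and 611 CPM in Foxp3-deficient libraries. Ccnd2 was at 543, 614, 582 and 675 CPM in WT libraries. Ccnd2, the other abundant D-type cyclin gene, overlapped between all groups and was not called in either mutant (log2 fold change −0.15 ± 0.14 and −0.11 ± 0.14, SE, Foxp3-deficient and double-deficient against WT). Cdk4, whose kinase pairs with cyclin D, averaged 157 ± 3.85 CPM in double-deficient, 147 ± 5.72 CPM in Foxp3-deficient and 171 ± 10.9 CPM in WT cells; the 4 Foxp3-deficient libraries lay below the 4 WT libraries, with a log2 fold change of −0.22 ± 0.07 (edgeR adjusted p = 0.0502), just short of the threshold. It passed in 7 of 23 alternatives (−0.25 to −0.21), which were RLE or upper quartile scaling, the stricter filter, DESeq2, both removals of length and GC trends, and leaving out WT replicate 5. Of the exonic bases of Cdk4, 19.7% are also covered by Tspan31 on the opposite strand. Cdk6 averaged 23.6 ± 1.26, 22.1 ± 7.67 and 22 ± 3.19 CPM in double-deficient, Foxp3-deficient and WT cells and was called in no comparison.

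The 3 CDK inhibitor genes of G1 went different ways. Cdkn1b was at 43.2, 29.5, 28.5 and 30.7 CPM in double-deficient libraries and at 41.3, 54.9, 43.9 and 38.8 CPM in Foxp3-deficient libraries. WT libraries had 45.1, 67, 45.9 and 54 CPM of Cdkn1b. Cdkn1b encodes p27, which holds CDK2 inactive in resting T cells, and every double-deficient library lay below every WT library, while the Foxp3-deficient range reached into both. Its log2 fold change was −0.68 ± 0.16 (edgeR adjusted p = 0.00487) in double-deficient against WT cells, a 1.61-fold lower level, −0.25 ± 0.16 (edgeR adjusted p = 0.375) in Foxp3-deficient against WT cells and −0.44 ± 0.16 (edgeR adjusted p = 0.0536) in double-deficient against Foxp3-deficient cells. The last of these passed the threshold when double-deficient replicate 2, Foxp3-deficient replicate 5 or WT replicate 3 was left out (−0.59 to −0.43). Cdkn2c stood at 19.4, 22.7, 18.5 and 17 CPM in double-deficient libraries and at 19.9, 20.6, 19.2 and 23.8 CPM in Foxp3-deficient libraries. Cdkn2c was at 15.6, 13.7, 17.6 and 14.4 CPM in WT libraries. Cdkn2c encodes p18, an inhibitor of CDK4 and CDK6, and rose in Foxp3-deficient cells by 0.44 ± 0.13 (edgeR adjusted p = 0.0347), with no overlap with WT; the call was lost without WT replicate 1, 3 or 5 or Foxp3-deficient replicate 5 (0.37 to 0.44). In double-deficient cells it gave 0.34 ± 0.13 (edgeR adjusted p = 0.0621). Cdkn1a was at 3.27, 4.19, 4.68 and 5.36 CPM in double-deficient libraries and at 1.95, 19.2, 3.0 and 5.25 CPM in Foxp3-deficient libraries. WT libraries had 1.65, 1.72, 2.72 and 3.37 CPM of Cdkn1a. Cdkn1a encodes p21, a p53 target that blocks CDK2, and 1 library, Foxp3-deficient replicate 3, stood far above the other 11. Its difference between Foxp3-deficient and WT cells was not called (1.61 ± 0.57, edgeR adjusted p = 0.0817) and was carried by that library, without which the log2 fold change was 0.52; it passed the threshold without Foxp3-deficient replicate 1 or 4 (1.87 to 1.92), and in double-deficient against WT cells without Foxp3-deficient replicate 3 (0.87).

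At the G1/S switch 4 of 5 genes rose in Foxp3-deficient cells and 3 of 5 in double-deficient cells, with median log2 fold changes of 0.61 and 0.50. E2f1 stood at 8.52, 10.1, 12.2 and 11.3 CPM in double-deficient libraries and at 10.7, 8.35, 11.4 and 10.9 CPM in Foxp3-deficient libraries. E2f1 was at 4.37, 4.49, 3.23 and 5.56 CPM in WT libraries. E2f1, the activator E2F whose own gene is an E2F target, was higher in each of the 8 mutant libraries than in any WT library. Its log2 fold change was 1.23 ± 0.19 (edgeR adjusted p = 0.000328) in Foxp3-deficient and 1.26 ± 0.19 (edgeR adjusted p = 0.000202) in double-deficient against WT cells, a 2.34-fold and a 2.39-fold higher level. E2f2 was at 95.2, 72.6, 79.6 and 87 CPM in double-deficient libraries and at 99.2, 48.4, 84.7 and 84.9 CPM in Foxp3-deficient libraries. WT libraries had 56.4, 46.8, 52.3 and 55.4 CPM of E2f2. E2f2, a second activator E2F, was the more abundant of the pair per kilobase (14.7 against 2.67 RPKM over all libraries). All double-deficient libraries lay above WT (0.66 ± 0.16, edgeR adjusted p = 0.0069), and 3 of 4 Foxp3-deficient libraries did, replicate 3 lying inside the WT range (0.59 ± 0.16, edgeR adjusted p = 0.0251). The Foxp3-deficient call was lost without Foxp3-deficient replicate 1, 4 or 5 or WT replicate 3 or 4 (0.47 to 0.58).

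Ccne1 stood at 12.9, 13.8, 14.2 and 11.6 CPM in double-deficient libraries and at 15.1, 10.4, 13.3 and 18 CPM in Foxp3-deficient libraries. Ccne1 was at 11.1, 7.82, 10.6 and 7.5 CPM in WT libraries. Ccne1 encodes cyclin E1, the partner of CDK2, and all double-deficient libraries lay above WT (0.50 ± 0.18, edgeR adjusted p = 0.0465), whereas Foxp3-deficient replicate 3 lay inside the WT range (0.62 ± 0.18, edgeR adjusted p = 0.0342). The Foxp3-deficient call was lost without Foxp3-deficient replicate 1, 4 or 5 or WT replicate 3 or 5 (0.48 to 0.65), and the double-deficient call without any of the 4 double-deficient libraries, WT replicate 3, 4 or 5 or Foxp3-deficient replicate 4 (0.41 to 0.58). Ccne2, the second cyclin E gene, averaged 7.52 ± 1.28 CPM in double-deficient, 9.04 ± 1.93 CPM in Foxp3-deficient and 5.9 ± 1.19 CPM in WT cells and was not called (0.61 ± 0.21, edgeR adjusted p = 0.0617 in Foxp3-deficient against WT cells). Of its exonic bases, 17.4% are shared with Ints8 on the opposite strand. Cdk2 was at 51.5, 50.4, 52.7 and 57.9 CPM in double-deficient libraries and at 80.9, 65.5, 72.6 and 74.1 CPM in Foxp3-deficient libraries. WT libraries had 54.2, 64.9, 55.9 and 55.4 CPM of Cdk2. Cdk2, the kinase of S phase entry, was higher in all Foxp3-deficient libraries than in any other library. It rose in Foxp3-deficient against WT cells (0.35 ± 0.09, edgeR adjusted p = 0.0185), a call lost without WT replicate 1, 4 or 5 (0.31 to 0.33), and it fell in double-deficient against Foxp3-deficient cells (−0.46 ± 0.09, edgeR adjusted p = 0.00297), so that double-deficient and WT cells did not differ beyond their spread (−0.12 ± 0.09, edgeR adjusted p = 0.355).

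**Figure D4:**
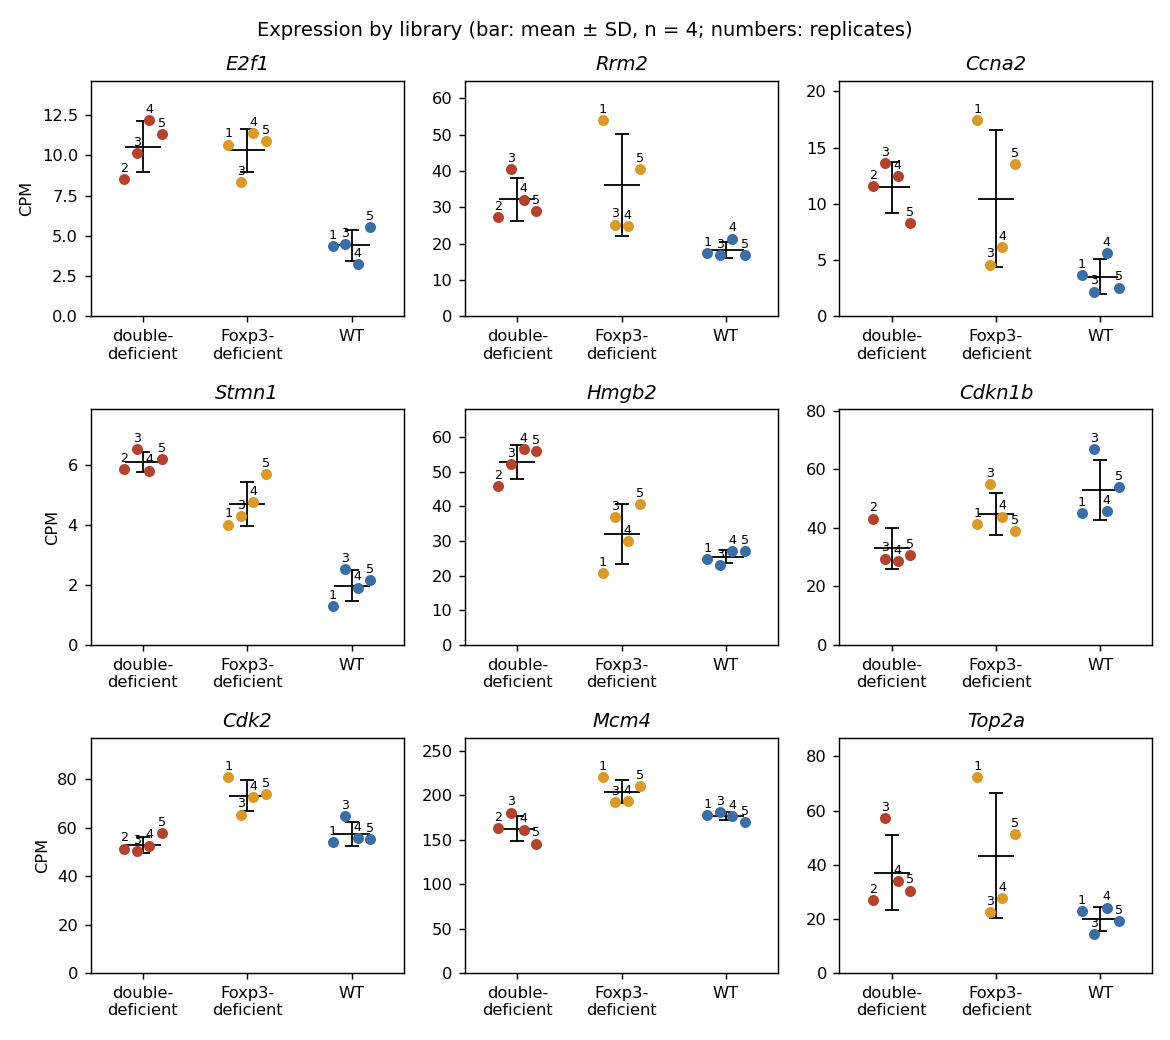
CPM per library of 9 of the genes, by group, with replicate numbers and bars for mean ± SD (n = 4). E2f1 and Stmn1 separate all 8 mutant libraries from WT, Hmgb2 and Cdkn1b separate the double-deficient libraries from WT, Cdk2 and Mcm4 are highest in Foxp3-deficient libraries, and Rrm2, Ccna2 and Top2a show the wide Foxp3-deficient spread with replicate 1 highest.

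Of the 9 licensing and firing genes, 3 rose in each mutant against WT, namely Mcm2, Mcm3 and Mcm7, with median log2 fold changes of 0.30 in Foxp3-deficient and 0.27 in double-deficient cells over the 9. The MCM2 to MCM7 proteins form the ring of the replicative helicase in equal copies, and their transcripts did not change equally. Mcm7 stood at 94, 97.5, 92.7 and 85.6 CPM in double-deficient libraries and at 104, 86.3, 81.9 and 87.2 CPM in Foxp3-deficient libraries. Mcm7 was at 78.4, 69, 70.7 and 71.8 CPM in WT libraries. All mutant libraries lay above WT for Mcm7, with log2 fold changes of 0.31 ± 0.09 (edgeR adjusted p = 0.0263) in Foxp3-deficient and 0.35 ± 0.09 (edgeR adjusted p = 0.00705) in double-deficient cells. The Foxp3-deficient call was lost without Foxp3-deficient replicate 1 or WT replicate 3, 4 or 5 (0.23 to 0.31). Mcm2 averaged 158 ± 5.95 CPM in double-deficient, 165 ± 15.6 CPM in Foxp3-deficient and 134 ± 5.92 CPM in WT cells with no overlap of either mutant with WT (0.30 ± 0.08, edgeR adjusted p = 0.016 and 0.24 ± 0.08, edgeR adjusted p = 0.0259, Foxp3-deficient and double-deficient). Mcm3 averaged 113 ± 2.5, 119 ± 18.2 and 92.6 ± 7.69 CPM in double-deficient, Foxp3-deficient and WT cells, also without overlap with WT (0.36 ± 0.10, edgeR adjusted p = 0.0228 and 0.29 ± 0.10, edgeR adjusted p = 0.0366). The Foxp3-deficient calls were lost without Foxp3-deficient replicate 5 or WT replicate 3 or 4 for Mcm2 (0.24 to 0.28) and without Foxp3-deficient replicate 1 or 5 or WT replicate 3 or 5 for Mcm3 (0.27 to 0.36). The double-deficient calls were lost without double-deficient replicate 3 or 4 or WT replicate 3 or 4 for Mcm2 (0.22 to 0.25) and without any double-deficient library or WT replicate 1, 3 or 5 for Mcm3 (0.24 to 0.31).

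Mcm4 was at 163, 181, 161 and 146 CPM in double-deficient libraries and at 220.4, 193, 194 and 210.0 CPM in Foxp3-deficient libraries. WT libraries had 178, 181, 177 and 170.1 CPM of Mcm4. For Mcm4 all 4 Foxp3-deficient libraries lay above all double-deficient and all WT libraries. It fell in double-deficient against Foxp3-deficient cells (−0.33 ± 0.08, edgeR adjusted p = 0.00763, 1.25-fold lower), while Foxp3-deficient against WT cells gave 0.21 ± 0.08 (edgeR adjusted p = 0.0853) and double-deficient against WT cells −0.12 ± 0.08 (edgeR adjusted p = 0.265), neither called. Mcm6 stood at 296, 318, 302 and 287 CPM in double-deficient libraries and at 286, 242, 254 and 333 CPM in Foxp3-deficient libraries. Mcm6 was at 277, 260.1, 300.4 and 319.6 CPM in WT libraries. Mcm6, the most abundant of the 44 per kilobase and the one with 3 E2F matches among the sequences above, overlapped between all groups, with log2 fold changes of −0.05 ± 0.10 (edgeR adjusted p = 0.794) in Foxp3-deficient and 0.06 ± 0.10 (edgeR adjusted p = 0.686) in double-deficient against WT cells. Mcm5 averaged 106 ± 15.4 CPM in double-deficient, 100.1 ± 20.4 CPM in Foxp3-deficient and 84.7 ± 7.38 CPM in WT cells and was not called against WT in either mutant, but it passed without Foxp3-deficient replicate 3 in both (0.37 and 0.33, Foxp3-deficient and double-deficient). Cdc6 and Cdt1 load the helicase. Cdc6 averaged 4.09 ± 0.905 CPM in double-deficient, 4.83 ± 2.08 CPM in Foxp3-deficient and 2.81 ± 0.215 CPM in WT cells, and was not called; it passed in Foxp3-deficient against WT cells without Foxp3-deficient replicate 3 (1.01) or without replicates 1 and 3 (0.86), and in double-deficient against WT cells with length and GC trends removed together with a replicate block (0.85). Cdt1 averaged 48.3 ± 4.16, 51.6 ± 5.18 and 44.4 ± 0.726 CPM in double-deficient, Foxp3-deficient and WT cells, and Cdc45, the helicase cofactor that joins at firing, 7.05 ± 1.16, 7.42 ± 1.54 and 5.83 ± 0.62 CPM; neither was called in any comparison.

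Among genes of nucleotide supply, Rrm2 stood out. Rrm2 was at 27.2, 40.4, 32.1 and 29 CPM in double-deficient libraries and at 53.9, 25.2, 24.9 and 40.6 CPM in Foxp3-deficient libraries. WT libraries had 17.4, 16.9, 21.4 and 16.9 CPM of Rrm2. Rrm2 encodes the S phase subunit of ribonucleotide reductase, and all 8 mutant libraries lay above all WT libraries, Foxp3-deficient replicate 1 being the highest. Its log2 fold change was 0.99 ± 0.22 (edgeR adjusted p = 0.00545) in Foxp3-deficient and 0.83 ± 0.22 (edgeR adjusted p = 0.00991) in double-deficient against WT cells, a 1.99-fold and a 1.77-fold higher level. Rrm1, the subunit present throughout the cycle, averaged 86.4 ± 7.0 CPM in double-deficient, 88.8 ± 15.8 CPM in Foxp3-deficient and 78.2 ± 3.44 CPM in WT cells and was called in no comparison. Pcna stood at 94.5, 90.7, 93.9 and 102 CPM in double-deficient libraries and at 48, 102, 56.7 and 76 CPM in Foxp3-deficient libraries. Pcna was at 41.7, 66.4, 52.3 and 75.1 CPM in WT libraries. Pcna encodes the sliding clamp of DNA polymerases, and the double-deficient libraries lay above all WT libraries and above 3 of 4 Foxp3-deficient libraries, replicate 3 of which was at the double-deficient level. It rose in double-deficient against WT cells (0.69 ± 0.21, edgeR adjusted p = 0.0206), a call lost without WT replicate 1 or 4 or double-deficient replicate 5 (0.56 to 0.66), and was not called in Foxp3-deficient against WT (0.26 ± 0.21, edgeR adjusted p = 0.491). Tyms, thymidylate synthase, averaged 19 ± 1.53, 15.7 ± 3.03 and 14.8 ± 2.57 CPM in double-deficient, Foxp3-deficient and WT cells, and was not called. Tk1, the salvage kinase for thymidine, averaged 6.07 ± 0.111, 6.07 ± 1.17 and 7.63 ± 1.54 CPM and was the only 1 of these 5 genes with a negative log2 fold change against WT in both mutants (−0.33 ± 0.19 in each, SE, not called).

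All 15 genes of G2 and mitosis had a positive log2 fold change against WT in both mutants, with medians of 1.10 in Foxp3-deficient and 0.88 in double-deficient cells, and 7 of 15 rose in each. Their summed level was 129, 193, 156 and 132 CPM in double-deficient libraries, 277, 89.4, 128 and 210 CPM in Foxp3-deficient libraries and 91.1, 65.9, 118 and 77.5 CPM in WT libraries. All double-deficient libraries exceeded all WT libraries, whereas Foxp3-deficient replicate 3 lay inside the WT range and replicate 1 above every other library. Ccna2 was at 11.6, 13.6, 12.5 and 8.32 CPM in double-deficient libraries and at 17.4, 4.6, 6.15 and 13.6 CPM in Foxp3-deficient libraries. WT libraries had 3.69, 2.22, 5.66 and 2.57 CPM of Ccna2. Ccna2 encodes cyclin A2, which acts in S phase and G2, and rose 1.55 ± 0.39 (edgeR adjusted p = 0.0135) in Foxp3-deficient and 1.69 ± 0.39 (edgeR adjusted p = 0.00459) in double-deficient cells, where no library overlapped WT. Of its exonic bases, 12.5% are shared with Exosc9 on the opposite strand. Cdk1 stood at 5.3, 8.11, 5.67 and 6.02 CPM in double-deficient libraries and at 4.44, 3.38, 4.96 and 8.32 CPM in Foxp3-deficient libraries. Cdk1 was at 2.04, 2.09, 3.53 and 3.33 CPM in WT libraries. Cdk1, the kinase that drives entry into mitosis, gave 0.93 ± 0.29 (edgeR adjusted p = 0.042) in Foxp3-deficient cells with 1 library (replicate 3) inside the WT range and 1.18 ± 0.29 (edgeR adjusted p = 0.00629) in double-deficient cells with none. Ccnb2 was at 9.26, 15.8, 13.3 and 8.7 CPM in double-deficient libraries and at 14.1, 5.22, 8.73 and 15.5 CPM in Foxp3-deficient libraries. WT libraries had 4.88, 3.39, 8.37 and 3.5 CPM of Ccnb2. Ccnb2 encodes a cyclin B that activates CDK1, and it gave 1.10 ± 0.35 (edgeR adjusted p = 0.0477) in Foxp3-deficient and 1.21 ± 0.35 (edgeR adjusted p = 0.016) in double-deficient cells. Ccnb1, the other cyclin B gene, was at 1.85 ± 0.694 CPM in double-deficient, 2.32 ± 0.943 CPM in Foxp3-deficient and 1.4 ± 0.478 CPM in WT cells and was not called.

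Kif11 stood at 13.4, 16.4, 15.1 and 14.2 CPM in double-deficient libraries and at 28.1, 6.51, 11.6 and 22.2 CPM in Foxp3-deficient libraries. Kif11 was at 5.05, 5.54, 10.4 and 6.7 CPM in WT libraries. Kif11 encodes the motor that pushes spindle poles apart. All double-deficient libraries lay above WT (1.08 ± 0.36, edgeR adjusted p = 0.031), and all Foxp3-deficient libraries but replicate 3 did (1.30 ± 0.36, edgeR adjusted p = 0.0246). Birc5 was at 5.2, 7.61, 6.6 and 4.65 CPM in double-deficient libraries and at 8.44, 2.95, 3.98 and 7.02 CPM in Foxp3-deficient libraries. WT libraries had 3.18, 1.85, 3.45 and 1.94 CPM of Birc5. Birc5 encodes survivin, a subunit of the chromosomal passenger complex, with log2 fold changes of 1.10 ± 0.33 (edgeR adjusted p = 0.0346) in Foxp3-deficient and 1.20 ± 0.33 (edgeR adjusted p = 0.0112) in double-deficient cells, and only Foxp3-deficient replicate 3 fell inside the WT range. Bub1 stood at 3.71, 3.42, 2.25 and 2.13 CPM in double-deficient libraries and at 7.04, 1.9, 1.45 and 3.81 CPM in Foxp3-deficient libraries. Bub1 was at 0.851, 0.369, 2.06 and 0.505 CPM in WT libraries. Bub1, a kinase of the spindle checkpoint, had the largest fitted change of the 44 genes in Foxp3-deficient against WT cells (1.86 ± 0.54, edgeR adjusted p = 0.0299), from as few as 6 reads in a library, and 1.55 ± 0.54 (edgeR adjusted p = 0.0369) in double-deficient cells. Without WT replicate 4 its log2 fold changes were 2.61 and 2.31, a shift of over 1.5 times in both. Aurka was at 4.31, 7.43, 6.84 and 7.06 CPM in double-deficient libraries and at 8.55, 6.87, 7.7 and 7.93 CPM in Foxp3-deficient libraries. WT libraries had 5.0, 3.51, 4.92 and 3.92 CPM of Aurka. Aurka, the kinase of spindle poles, was higher in all Foxp3-deficient than in all WT libraries (0.84 ± 0.20, edgeR adjusted p = 0.0107) and overlapped WT in double-deficient replicate 2 (0.56 ± 0.20, edgeR adjusted p = 0.0459).

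Several of these 7 calls depended on 1 library. In Foxp3-deficient against WT cells the count of G2 and mitosis genes called was 2 without WT replicate 1, 3 or 5 or Foxp3-deficient replicate 5, 3 without Foxp3-deficient replicate 1, and 14 without Foxp3-deficient replicate 3. Cdk1 was lost without Foxp3-deficient replicate 4 or 5, WT replicate 1, 3 or 5 or double-deficient replicate 4 or 5 (0.61 to 1.03), and Ccnb2 without any 1 of the libraries other than Foxp3-deficient replicate 3, WT replicate 4 and double-deficient replicate 3 (0.88 to 1.20). Birc5 (0.84 to 1.19), Bub1 (1.30 to 1.82) and Kif11 (0.95 to 1.28) were lost without Foxp3-deficient replicate 1 or 5 or WT replicate 1, 3 or 5. In double-deficient against WT cells Ccnb2 was lost without WT replicate 3 (1.06), Kif11 without double-deficient replicate 3, 4 or 5 or WT replicate 1, 3 or 5 (0.96 to 1.11), Bub1 without double-deficient replicate 2 or 3 or WT replicate 1, 3 or 5 (1.31 to 1.5), and Aurka without 9 of the 12 libraries, which were all but double-deficient replicate 2 and Foxp3-deficient replicates 1 and 3 (0.47 to 0.63). The count there was 3 without WT replicate 3, 4 without WT replicate 1 or 5 or double-deficient replicate 3, and 10 without Foxp3-deficient replicate 1 or 3. Both counts also depended on the processing. In Foxp3-deficient against WT cells DESeq2 called 13 of the 15 genes higher and limma-voom 3. A fit without the low-count filter gave 3, and a fit of only the 2 groups compared gave 2. In double-deficient against WT cells these counts were 9, 6, 4 and 10. With length and GC trends removed, 9 were called higher in Foxp3-deficient and 4 in double-deficient against WT cells. Over all genes, DESeq2, limma-voom, the unfiltered fit and the 2-group fit called 2231, 1868, 1695 and 1439 in Foxp3-deficient against WT cells. In double-deficient against WT cells they called 4774, 4512, 3919 and 5637. With the trends removed, 1982 and 4083 were called over all genes, against 1812 and 4299 in the main fit.

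The 8 other G2 and mitosis genes missed the threshold in both comparisons. Top2a stood at 27, 57.2, 33.9 and 30.5 CPM in double-deficient libraries and at 72.3, 22.5, 27.7 and 51.2 CPM in Foxp3-deficient libraries. Top2a was at 22.9, 14.3, 24.2 and 19.2 CPM in WT libraries. Top2a, which untangles sister chromosomes, was above the WT range in all double-deficient libraries and in 3 of 4 Foxp3-deficient libraries, with log2 fold changes of 1.10 ± 0.35 (edgeR adjusted p = 0.0576) and 0.88 ± 0.35 (edgeR adjusted p = 0.0738) in Foxp3-deficient and double-deficient cells. Mki67 was at 14.5, 17.3, 20.6 and 14.1 CPM in double-deficient libraries and at 38.1, 15.5, 18.9 and 24.4 CPM in Foxp3-deficient libraries. WT libraries had 13.3, 11.7, 20.1 and 12.1 CPM of Mki67. Mki67 encodes Ki-67, the usual marker of cycling cells, and its log2 fold change was 0.75 ± 0.25 (edgeR adjusted p = 0.0578) in Foxp3-deficient and 0.21 ± 0.25 (edgeR adjusted p = 0.54) in double-deficient cells, with overlap with WT in both. Without Foxp3-deficient replicate 3, Foxp3-deficient against WT cells also gave calls for Cdc20 (0.59), the activator of the anaphase-promoting complex, the mitotic kinase genes Plk1 (1.25) and Aurkb (1.57), the checkpoint gene Bub1b (0.96), the spindle assembly gene Tpx2 (1.56), Top2a (1.32) and Mki67 (0.97). Top2a was also called without Foxp3-deficient replicate 4 or double-deficient replicate 3, and Mki67 without WT replicate 4. In double-deficient against WT cells Cdc20 passed without 5 libraries (WT replicate 4, Foxp3-deficient replicate 1, 3 or 5, or double-deficient replicate 2; 0.46 to 0.57), and Aurkb (1.26) and Top2a (0.88) without Foxp3-deficient replicate 1 or 3.

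Of the remaining 3 genes, Stmn1 and Hmgb2 gave the clearest separation. Stmn1 stood at 5.84, 6.53, 5.81 and 6.18 CPM in double-deficient libraries and at 4.01, 4.3, 4.75 and 5.68 CPM in Foxp3-deficient libraries. Stmn1 was at 1.31, 2.52, 1.91 and 2.15 CPM in WT libraries. Stmn1 encodes stathmin, which takes tubulin out of microtubules, and the 3 groups did not overlap at all, with double-deficient highest and WT lowest. Its log2 fold change was 1.25 ± 0.23 (edgeR adjusted p = 0.00114) in Foxp3-deficient and 1.62 ± 0.22 (edgeR adjusted p = 8.40e-05) in double-deficient against WT cells, a 2.38-fold and a 3.08-fold higher level, and 0.38 ± 0.21 (edgeR adjusted p = 0.202) between the mutants, not called. Hmgb2 was at 45.9, 52.1, 56.6 and 56 CPM in double-deficient libraries and at 20.8, 36.9, 29.9 and 40.7 CPM in Foxp3-deficient libraries. WT libraries had 24.7, 23.1, 27 and 27 CPM of Hmgb2. Hmgb2 encodes a chromatin protein of dividing cells, and all double-deficient libraries exceeded all others. It rose in double-deficient cells against both Foxp3-deficient (0.72 ± 0.16, edgeR adjusted p = 0.00595) and WT cells (1.05 ± 0.16, edgeR adjusted p = 0.000241), while Foxp3-deficient against WT cells gave 0.33 ± 0.16 (edgeR adjusted p = 0.219), which passed without Foxp3-deficient replicate 1 (0.49). Tubb5, a tubulin gene used in all cells, averaged 164 ± 10.2 CPM in double-deficient, 172 ± 18.2 CPM in Foxp3-deficient and 157 ± 10 CPM in WT cells and was called in no comparison.

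In double-deficient against Foxp3-deficient cells the G2 and mitosis genes had a median log2 fold change of −0.23, with 0 of 15 called by edgeR, by DESeq2 or by limma-voom; 1 was lower at an unadjusted p under 0.05 by edgeR, and 3 were called lower without Foxp3-deficient replicate 3. Leaving out Foxp3-deficient replicates 1 and 3 together, 0 of 15 were called. The standard errors of the 15 log2 fold changes ran from 0.17 (Cdc20) to 0.50 (Bub1 and Tpx2). Hmgb2, Cdk2 and Mcm4 were the 3 called genes, and with length and GC trends taken out of every library 1 gene was called higher and 3 lower. Across all genes, the log2 fold change of this comparison fell with exonic length (Spearman rho = −0.29 across genes, which are not independent replicates). The same rho was −0.19 in double-deficient against WT cells and 0.11 in Foxp3-deficient against WT cells. The part of RNA quality or of length in these differences was not tested further.

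The libraries of a group differed most in the G2 and mitosis genes, whose median coefficient of variation was 22.4% in double-deficient, 49.4% in Foxp3-deficient and 29.6% in WT libraries. It was 8.62%, 14.6% and 7.63% for the licensing genes. Within the Foxp3-deficient group replicate 1 was the highest for 12 of the 15 G2 and mitosis genes and replicate 3 the lowest for 14. Within WT, replicate 4 was the highest for 14 and replicate 3 the lowest for 12, and within double-deficient, replicate 3 was the highest for 10. Over all 44 genes Foxp3-deficient replicate 3 was the lowest of its group for 32, and it was also the library with the high Cdkn1a value. Leaving out both Foxp3-deficient replicates 1 and 3, the count of genes called was 19 higher and 0 lower in Foxp3-deficient against WT cells, 1 higher and 3 lower in double-deficient against Foxp3-deficient cells, and 24 higher and 1 lower in double-deficient against WT cells. That fit tested 13938 genes. In the same order, 938 of these rose and 813 fell, 1558 rose and 1412 fell, and 2917 rose and 2829 fell.

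**Figure D5:**
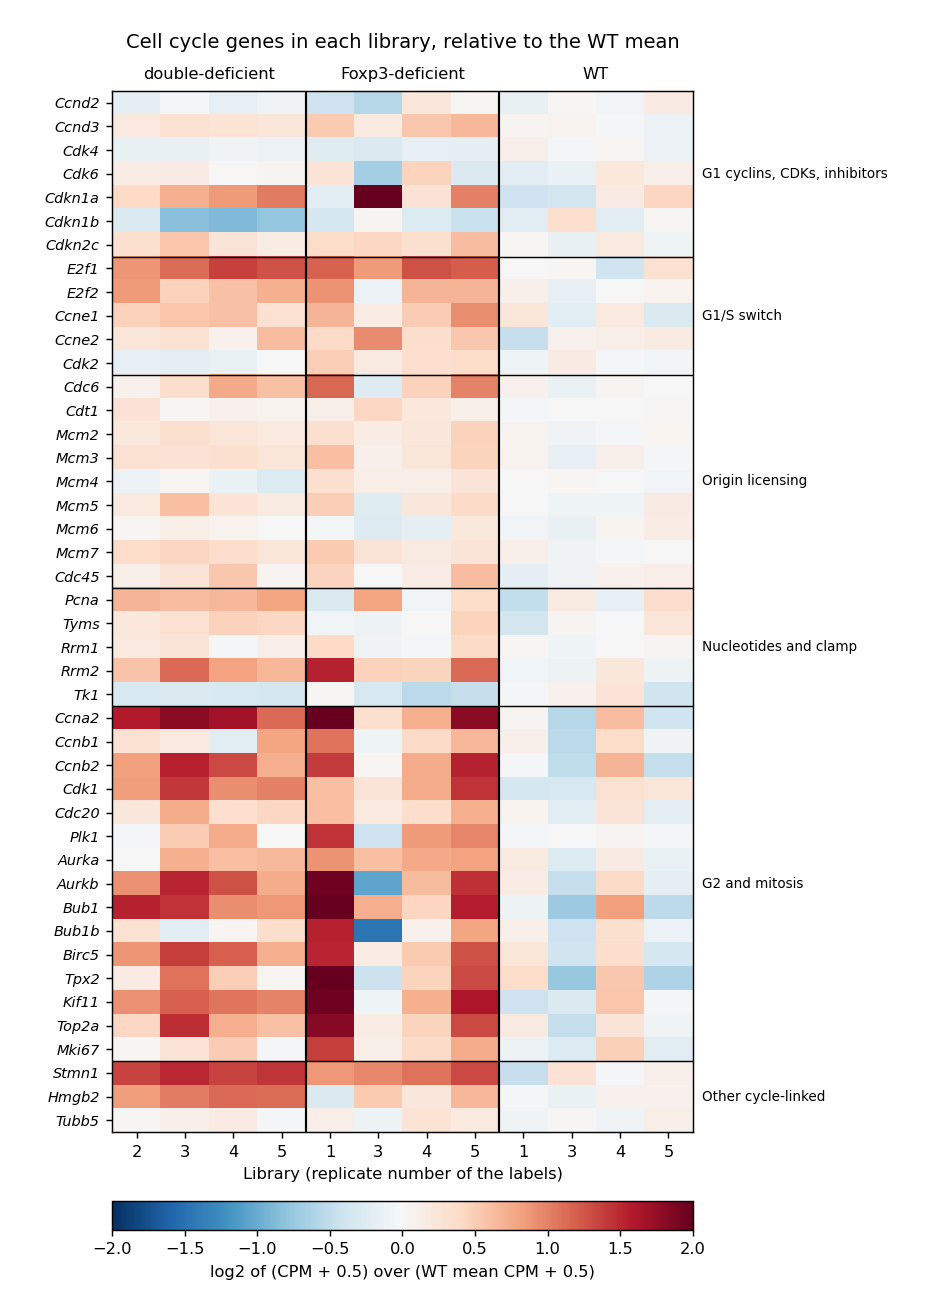
Each of the 44 genes (rows, by role) in each library (columns, by group, replicate numbers below), as the log2 of CPM + 0.5 over the WT mean + 0.5; red is above and blue below the WT mean. The G2 and mitosis block is mostly red in the double-deficient libraries (Ccnb1 and Bub1b being among the exceptions) and darkest in Foxp3-deficient replicates 1 and 5, while Foxp3-deficient replicate 3 is near or below the WT mean for several of its genes.

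Other genes of the pathway were read from lists. Their counts are set against the shares of all genes tested given above, which were 6.99% higher and 6.74% lower in Foxp3-deficient against WT cells, 15.8% and 16.8% in double-deficient against WT cells, and 13.9% and 13.3% in double-deficient against Foxp3-deficient cells. Of 44 further genes of mitosis, 15 rose and 0 fell in Foxp3-deficient against WT cells (median log2 fold change 0.63), 19 rose and 1 fell in double-deficient against WT cells (0.62), and 2 rose and 1 fell in double-deficient against Foxp3-deficient cells (−0.10). These are 34.1%, 43.2% and 4.55% of the list higher. Racgap1, a gene of cytokinesis, averaged 77.3 ± 4.51 CPM in double-deficient, 76.5 ± 19.8 CPM in Foxp3-deficient and 29.9 ± 2.66 CPM in WT cells. It rose in both mutants (1.36 ± 0.15, edgeR adjusted p = 1.41e-05 and 1.37 ± 0.15, edgeR adjusted p = 9.36e-06, Foxp3-deficient and double-deficient against WT). Cdc25b, a phosphatase that activates CDK1, averaged 252 ± 9.8, 157 ± 29.1 and 115 ± 3.81 CPM in double-deficient, Foxp3-deficient and WT cells and rose in all 3 comparisons, by 0.68 ± 0.11 (edgeR adjusted p = 0.000593) between the mutants. Of 36 further replication genes, 8 rose and 0 fell in Foxp3-deficient against WT cells (median 0.15), 9 rose and 0 fell in double-deficient against WT cells (0.24), and 5 rose and 2 fell between the mutants (−0.01). The shares higher were 22.2% and 25.0% against WT, and the 13.9% between the mutants equals the share of all genes, so that count is no result about replication genes. Pole2, a subunit of the leading-strand polymerase, averaged 17.6 ± 1.61 CPM in double-deficient, 11.2 ± 1.38 CPM in Foxp3-deficient and 5.34 ± 1.01 CPM in WT cells and rose in all 3 comparisons, by 1.07 ± 0.16 (edgeR adjusted p = 0.000244) in Foxp3-deficient against WT, 0.64 ± 0.16 (edgeR adjusted p = 0.0087) between the mutants and 1.72 ± 0.16 (edgeR adjusted p = 1.80e-06) in double-deficient against WT cells.

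Of 17 genes of the retinoblastoma, E2F and MuvB complexes, 2 rose and 1 fell in Foxp3-deficient against WT cells, 2 rose and 2 fell in double-deficient against WT cells, and 1 rose and 2 fell between the mutants. In double-deficient against WT cells 11.8% rose and 11.8% fell, and between the mutants 5.88% rose and 11.8% fell, all below the shares of all genes. In Foxp3-deficient against WT cells 11.8% rose and 5.88% fell. E2f8, an E2F that represses its targets, averaged 0.944 ± 0.344 CPM in double-deficient, 3.31 ± 1.51 CPM in Foxp3-deficient and 0.931 ± 0.289 CPM in WT cells: it rose in Foxp3-deficient cells (1.81 ± 0.39, edgeR adjusted p = 0.00462) and fell in double-deficient against Foxp3-deficient cells (−1.80 ± 0.39, edgeR adjusted p = 0.00492). Foxm1, the activator of mitotic genes, rose in Foxp3-deficient (1.07 ± 0.30, edgeR adjusted p = 0.0233) and in double-deficient cells (0.92 ± 0.30, edgeR adjusted p = 0.0269) against WT. E2f3, an activator E2F, fell in Foxp3-deficient (−0.92 ± 0.22, edgeR adjusted p = 0.0102) and in double-deficient cells (−0.91 ± 0.22, edgeR adjusted p = 0.00632). E2f5, a repressor E2F, rose in double-deficient cells against Foxp3-deficient (0.80 ± 0.19, edgeR adjusted p = 0.00817) and WT cells (0.78 ± 0.19, edgeR adjusted p = 0.00604), and Rbl2, the retinoblastoma relative of resting cells, fell against both (−0.31 ± 0.09, edgeR adjusted p = 0.0231 and −0.38 ± 0.09, edgeR adjusted p = 0.00662).

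Genes that restrain division were also among those called higher. Of 9 tested CDK inhibitor and antiproliferative genes, 4 rose and 0 fell in Foxp3-deficient against WT cells, 5 rose and 0 fell in double-deficient against WT cells, and 2 rose and 1 fell between the mutants. The shares higher were 44.4%, 55.6% and 22.2% of these 9 genes. Cdkn2d, which encodes the CDK4 inhibitor p19, averaged 181 ± 7.19 CPM in double-deficient, 156 ± 26.1 CPM in Foxp3-deficient and 105 ± 17.1 CPM in WT cells, and rose in both mutants (0.56 ± 0.12, edgeR adjusted p = 0.00513 and 0.78 ± 0.12, edgeR adjusted p = 0.000279, Foxp3-deficient and double-deficient). Klf2, a quiescence factor of T cells, averaged 1655 ± 97.7, 1347 ± 371 and 892 ± 87.9 CPM in double-deficient, Foxp3-deficient and WT cells and rose in both (0.59 ± 0.14, edgeR adjusted p = 0.0102 and 0.89 ± 0.14, edgeR adjusted p = 0.000333). Of 16 p53 and DNA damage genes, 0 rose and 1 (Sesn1) fell in Foxp3-deficient against WT cells, 2 rose and 4 fell in double-deficient against WT cells, and 0 rose and 4 fell between the mutants. The 6.25% lower in Foxp3-deficient and the 12.5% higher in double-deficient against WT cells are near or below the shares of all genes, and 25.0% of the list was lower in both other comparisons. Brca2, a gene of homologous recombination, averaged 3.93 ± 0.707 CPM in double-deficient, 8.42 ± 1.22 CPM in Foxp3-deficient and 10.6 ± 2.44 CPM in WT cells, and fell in double-deficient against Foxp3-deficient (−1.10 ± 0.21, edgeR adjusted p = 0.00214) and WT cells (−1.42 ± 0.21, edgeR adjusted p = 0.00013).

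Markers of other cells moved with some groups. The sum of 8 B cell markers was 769.9 to 937 CPM in double-deficient, 669.5 to 833 CPM in Foxp3-deficient and 1257 to 1485 CPM in WT libraries. That of 9 erythroid markers was 22.6 to 28.9, 15.3 to 22.7 and 35.4 to 54.8 CPM, so both were highest in WT. Most of the B cell sum was Ighm, with means of 852.5, 733.3 and 1368 CPM in the same order. Most of the erythroid sum was Gata1, with means of 24.66, 16.98 and 42.68 CPM. The sum of 5 plasma cell markers was 50.3 to 58.4 CPM in double-deficient, 19.8 to 32.3 CPM in Foxp3-deficient and 37.6 to 58.3 CPM in WT libraries, most of it Prdm1, a gene that Treg cells also express. Within that list Jchain, which encodes the joining chain of secreted antibodies, was at 7.63 to 13.6 CPM in double-deficient, 0.325 to 1.9 CPM in Foxp3-deficient and 0.22 to 3.12 CPM in WT libraries. It rose in double-deficient against Foxp3-deficient (3.72 ± 0.65, edgeR adjusted p = 0.00186) and WT cells (3.23 ± 0.63, edgeR adjusted p = 0.00183), as did the plasma cell surface gene Sdc1 (1.11 ± 0.35, edgeR adjusted p = 0.03 and 1.73 ± 0.36, edgeR adjusted p = 0.00231), while neither was called in Foxp3-deficient against WT cells. The rest of that list did not rise in double-deficient against WT cells. Prdm1 gave −0.16 ± 0.16 there (edgeR adjusted p = 0.453) and 0.79 ± 0.16 between the mutants (edgeR adjusted p = 0.00359). Derl3 gave 0.00 ± 0.33 in double-deficient against WT cells (edgeR adjusted p = 0.996). Mzb1 stayed at or below 0.23 CPM and was not tested. The sum of 10 myeloid markers stayed under 2 CPM and that of 5 dendritic markers under 3 CPM in all libraries, and that of 5 CD8 and NK markers was 44.8 to 49.9, 32.2 to 44.3 and 37.9 to 44.6 CPM in double-deficient, Foxp3-deficient and WT libraries. The sum of 3 progenitor and thymocyte markers was 3.06 to 22.3 CPM in double-deficient libraries, replicate 3 being the highest, against 2.21 to 4.39 CPM in Foxp3-deficient and 2.59 to 3.86 CPM in WT libraries. Of these markers Kit was called higher in double-deficient against Foxp3-deficient (2.56 ± 0.68, edgeR adjusted p = 0.0157) and WT cells (3.06 ± 0.70, edgeR adjusted p = 0.00533). Kit ranged widely within the double-deficient group, from 1.88 to 19.7 CPM. Dntt went the other way and was not called (−0.16 ± 0.37, edgeR adjusted p = 0.768 and −0.46 ± 0.37, edgeR adjusted p = 0.349). Ptcra stayed at or below 0.18 CPM and was not tested. The sum of 8 Treg markers was 1553 to 1796 CPM in double-deficient, 1115 to 1265 CPM in Foxp3-deficient and 3169 to 3469 CPM in WT libraries, so the cell cycle differences came with lower Treg markers in both mutants. No marker was at 0 in every library. The part of these cells in the cell cycle differences was not tested.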

How the data were processed

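The authors deposited raw counts, whole numbers of reads per gene and library, in 1 table of 12 libraries. Per the labels, RNA was copied with the SMART-Seq v4 kit, and 2 different library kits are named by the series text and the sample protocol. STAR 2.5.1b aligned the reads to mm10 and HTSeq counted them, per the submitters' processing notes. Neither strand setting, HTSeq version nor annotation release is given in the sources used here. There were 25189 genes in the table and 3 summary rows (reads assigned to no counted feature, ambiguous, not uniquely aligned), which were kept out of library sizes. Together the summary rows held between 34.7% and 40.5% of each library's reads.

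Genes were filtered with filterByExpr (13196 kept), scaled by TMM and tested by quasi-likelihood F tests in edgeR (version 4.0.16, under R 4.3.3; 1 fit over 12 libraries, no covariate), with Benjamini-Hochberg adjustment over all genes tested and a threshold of 0.05. The script was tested on simulated counts. The biological coefficient of variation was 17.4%, which limits the size of change that 4 libraries a group can show. Lengths and GC content came from GENCODE M21 (97.5% of genes matched). Without a stated strand setting, reads of genes that overlap on opposite strands cannot be told apart; this touches 13 of the 44 genes, 10 with a partner in the count table (Ccnd2, Ccnd3, Cdk4, Cdk6, Ccne2, Cdk2, Mcm7, Tk1, Ccna2 and Cdc20) and 3 (Cdkn1a, Cdc45 and Plk1) with a partner not analysed here. A named copy in the annotation makes the counts of 6 genes less certain (Ccnd3, Pcna, Tyms, Ccnb1, Ccnb2 and Stmn1). The markers Ncr1, Tnfrsf17, Clec9a, Cd34, Rag1 and Rag2 were not analysed here.

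The members, gene lists, tests and named genes (all 44 members and, from each further list, up to 3 called genes per comparison with the smallest adjusted p) were chosen with earlier results of these data known. Same-numbered libraries did not deviate together in every pair (correlations of −0.05 to 0.20), so replicate numbers were not used to pair libraries. Between Foxp3-deficient and WT cells all correlations were positive (0.16, 0.10, 0.03 and 0.20 for replicates 1, 3, 4 and 5). Whether those 2 groups are paired was not settled by these values. Alternatives were RLE and upper quartile scaling, no filter and a stricter filter (mean of 5 CPM, with 4 or more libraries at 1 CPM), limma-voom (limma 3.58.1), DESeq2 1.42.0, fits of 2 groups, a replicate block, removal of length and GC trends, each library left out, and Foxp3-deficient replicates 1 and 3 left out together.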

Additional observations from a re-analysis of the deposited data

Results flagged for a closer look

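In 4 of 132 sets of 4 libraries (44 genes in 3 groups), the highest library stood apart from the other 3 by more than Dixon's 95% limit, where chance gives about 1 in 20. Cdkn1b was at 43.2 CPM in double-deficient replicate 2, with the other double-deficient libraries between 28.5 and 30.7 CPM; it was still below all WT libraries. Cdk2 was at 64.9 CPM in WT replicate 3, with the other WT libraries between 54.2 and 55.9 CPM. Tyms was at 20.2 CPM in Foxp3-deficient replicate 5, with the others between 13.8 and 14.7 CPM. Rrm2 was at 21.4 CPM in WT replicate 4, with the others between 16.9 and 17.4 CPM.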

How the results depend on the processing

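The number of the 44 genes called was 18 in Foxp3-deficient against WT cells, 3 in double-deficient against Foxp3-deficient cells and 19 in double-deficient against WT cells. A fit of only the 2 groups compared gave 7 in the first comparison, and a stricter filter gave 5 in the second. Over all genes, those 2 fits called 1439 of 12694 and 3296 of 9365 genes tested. The main fit called 1812, 3585 and 4299 of 13196 in the 3 comparisons. Leaving out 1 library gave 7 to 27, 3 to 8 and 11 to 24 in these comparisons. Most of these leave-one-out counts are given without the all-gene counts of their fits. A change of these genes is therefore not told apart from a general change in calls. With the replicate number as a block, the counts were 13, 4 and 18, of which 3, 0 and 8 were G2 and mitosis genes (7, 0 and 7 without it). The all-gene counts under the block were 1783, 2756 and 3494. No label ties same-numbered libraries to 1 mouse, and whether they share one was not settled by the values: of the libraries with a partner of the same number, 5 of 8 correlated best with it between Foxp3-deficient and WT cells, 0 of 6 between the mutants and 2 of 6 between double-deficient and WT cells. A call lost under the block is therefore not read as a weaker effect. DESeq2 gave 27, 4 and 22, and leaving out Foxp3-deficient replicates 1 and 3 gave 19, 4 and 25. Over all genes these fits called 2231, 4136 and 4774, and 1751, 2970 and 5746. No log2 fold change of a called gene changed its sign under any of these alternatives. Wherever they were tested, Aurka, Ccnd3, E2f1, Rrm2 and Stmn1 were called in all alternatives for Foxp3-deficient against WT cells, and Mcm4 for double-deficient against Foxp3-deficient cells. In double-deficient against WT cells this held for Birc5, Ccna2, Cdk1, Cdkn1b, E2f1, E2f2, Hmgb2, Mcm7, Rrm2 and Stmn1. Cdk2 and Hmgb2 lost their calls between the mutants when length and GC trends were removed together with the block. Over all genes, 3585 were called between the mutants, 2382 in a fit of only those 2 groups and 1906 with the trends and the block. The causes were not tested. Of the genes not called, 11 of 26, 2 of 41 and 9 of 25 in the 3 comparisons were called in at least 1 alternative other than leaving out 1 library. Depth limits single genes such as Bub1, with as few as 6 reads in a library.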
